A study of Mus musculus with 16 samples.

Results

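The levels of 10 circadian clock genes were read in the suprarenal aorta, the segment of the abdominal aorta above the renal arteries, of mice lacking Vamp8 and of wild-type mice. The 10 genes were Per1, Per2, Per3, Nr1d1, Nr1d2, Dbp, Tef, Ciart, Npas2 and Cry2, taken by symbol out of 29695 genes in the count table. They were chosen by their levels in these same libraries, so their values are given as a description and carry no test. All 10 passed the filter on low counts. The 4 groups held 4 libraries each, from male Vamp8-/- mice (KO) given angiotensin II (AngII), KO mice given saline, C57BL/6 wild-type mice (WT) given AngII and WT mice given saline. AngII, a vasoconstrictor peptide, ran at 1000 ng/kg/min for 5 days, and both AngII and saline came from Alzet osmotic minipumps placed under the skin. Every mouse therefore underwent pump surgery, and aortae with haemorrhage in the wall or other visible pathology were excluded before sequencing. The labels used here give neither the age of the mice, nor the hour at which tissue was collected, nor the nature of the Vamp8 allele.

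The circadian clock is a feedback loop of transcription that runs in nearly every cell, including the smooth muscle and endothelium of arteries. The activators BMAL1 and CLOCK, or NPAS2 in the place of CLOCK, bind E-box sequences and switch on the Per and Cry genes, whose proteins then block the activators. A second loop joins in through NR1D1 and NR1D2 (REV-ERB alpha and beta), which repress Bmal1 and Npas2, while the receptor RORA activates them. The PAR bZIP factors DBP, TEF and HLF are driven by the same activators and bind D-box sequences, where NFIL3 competes with them. Transcripts of Dbp, Nr1d1 and Per3 therefore normally peak at another time of day than those of Bmal1 and Npas2.

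Promoter sequences from RefSeq (GRCm38.p6) matched 9 of the 10 genes. They are shown for 5 genes that span the patterns described here, as the 250 bases upstream of the transcript start, and do not share the genome build of the counts. Ciart had the largest fitted fold change and holds 3 E-boxes at chr3:95882229-95882478 (minus strand). Per3, at chr4:151044666-151044915 (minus strand), holds 2 D-boxes. Tef holds an E-box and a D-box at the first of its listed starts, chr15:81802423-81802672 (plus strand). Per1, whose levels did not follow the groups, holds an E-box and an AGGTCA element at chr11:69098699-69098948 (plus strand). Npas2, the gene that was lower in KO, holds none of the motifs searched at chr1:39194022-39194271 (plus strand). Dbp, which was higher in KO and is not shown, holds none of them either. Each run is written 5′ to 3′ on the gene's strand, and capitals mark the motif matches.
Ciart: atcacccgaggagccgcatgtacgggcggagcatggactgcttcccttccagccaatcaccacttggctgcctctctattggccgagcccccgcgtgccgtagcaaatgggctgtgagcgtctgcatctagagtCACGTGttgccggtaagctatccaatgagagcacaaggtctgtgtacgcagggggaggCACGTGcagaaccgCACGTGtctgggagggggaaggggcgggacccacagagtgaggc
Per3: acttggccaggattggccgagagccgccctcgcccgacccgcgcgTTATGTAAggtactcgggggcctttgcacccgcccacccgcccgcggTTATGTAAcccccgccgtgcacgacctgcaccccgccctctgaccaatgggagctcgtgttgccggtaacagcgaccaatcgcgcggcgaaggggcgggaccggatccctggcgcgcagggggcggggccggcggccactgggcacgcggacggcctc
Tef: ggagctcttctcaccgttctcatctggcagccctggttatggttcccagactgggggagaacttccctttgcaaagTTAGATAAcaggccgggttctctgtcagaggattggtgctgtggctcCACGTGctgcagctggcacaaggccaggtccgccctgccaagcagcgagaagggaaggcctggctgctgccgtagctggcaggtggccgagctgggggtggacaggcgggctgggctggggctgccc
Per1: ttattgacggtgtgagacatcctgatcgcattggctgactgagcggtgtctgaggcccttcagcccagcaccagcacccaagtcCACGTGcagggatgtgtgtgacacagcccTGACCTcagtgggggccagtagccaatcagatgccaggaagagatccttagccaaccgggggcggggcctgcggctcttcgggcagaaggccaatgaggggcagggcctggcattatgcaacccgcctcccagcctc
Npas2: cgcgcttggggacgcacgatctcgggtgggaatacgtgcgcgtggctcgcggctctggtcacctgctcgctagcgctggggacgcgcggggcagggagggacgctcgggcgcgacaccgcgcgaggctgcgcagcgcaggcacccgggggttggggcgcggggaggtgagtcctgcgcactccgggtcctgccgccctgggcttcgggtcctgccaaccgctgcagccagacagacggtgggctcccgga

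The motifs were searched on both strands of 300 bases, 250 before and 50 after each start. A gene was counted if any of its listed starts had a match, and Per1 and Tef have more than a single start. The shares of all promoters count each start by itself, so the units differ. The E-box CACGTG was found in 3 of the 9 genes (Ciart, Per1 and Tef) and in 7.15% of all 32851 listed promoters. Its variant CACGTT was found in Cry2 and Nr1d1, against 4.68% of all promoters. The D-box TTANNTAA was found in Per3 and Tef, against 6.0% of all promoters. The REV-ERB element AGGTCA was found in Nr1d2 and Per1, against 16.3% of all promoters. No member held the cAMP response element TGACGTCA, which 1.79% of all promoters held. These are matches of letters in a short window, and they bear on no binding.

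The libraries held between 13284804 and 21643548 counted reads each. Vamp8 itself was at 14.1 to 26.7 CPM (counts per library total after TMM scaling) in KO AngII and at 24.9 to 31.4 CPM in 3 of the KO saline libraries. The library labelled KO saline replicate 1 stood at 53.3 CPM, within the WT range of 45.9 to 60.9 CPM. Smooth muscle markers (Myh11, Acta2, Tagln, Cnn1 and Smtn) summed to 5354 to 15728 CPM in KO AngII, 8259 to 10858 CPM in KO saline, 11211 to 16669 CPM in WT AngII and 7447 to 20234 CPM in WT saline, so smooth muscle RNA was present in each library. Tagln added little to these sums, at 18.9 to 57.6 CPM in KO and 16.6 to 61.2 CPM in WT. Acta2 stood at 3249 to 10158 CPM in KO and 4624 to 13064 CPM in WT. The cause of the low Tagln counts was not tested. Markers of sympathetic or chromaffin cells (Th, Dbh, Chga and Chgb) summed to 1550 CPM in the library labelled KO AngII replicate 4, and skeletal muscle markers reached 518 CPM in 1 KO saline library. Mitochondrial transcripts took 10.1% to 24.3% of reads in KO AngII, 27.0% to 32.8% in KO saline, 9.56% to 16.3% in WT AngII and 8.33% to 17.7% in WT saline. A symbol was missing for 2725 genes, exactly those with 0 reads in every WT library, so the counting may have differed by genotype. Neither that nor the hour or day of collection can be told apart from genotype in the comparisons of KO with WT.

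Of the 10 clock genes, 5 split the 16 libraries by genotype. Per3, Nr1d2, Dbp, Tef and Ciart were higher in all 8 KO libraries than in any of the 8 WT libraries, which 0.651% of the 15984 genes tested also were, and none of the 10 was lower throughout, against 0.626% of genes. Npas2 was lower in KO, with an overlap of 1 KO and 1 WT library across the infusions. With KO AngII replicate 4 and the library labelled KO saline replicate 1 left out of the fit, the log2 difference of KO from WT was 2.04 under AngII and 1.98 under saline for Dbp, and -2.25 and -1.89 for Npas2. Under saline, the groups did not overlap for 5 members with KO higher (background 5.17%) and for Npas2 with KO lower (5.94%). Under AngII they did not overlap for 8 members with KO higher (4.54%) and again for Npas2 with KO lower (4.8%). Since these contrasts entered the choice of the genes, the counts are a description. Under saline the mitochondrial share of reads was also apart between genotypes, at 27.0% to 32.8% in KO and 8.33% to 17.7% in WT, and its part in the saline differences was not tested.

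**Figure D1:**
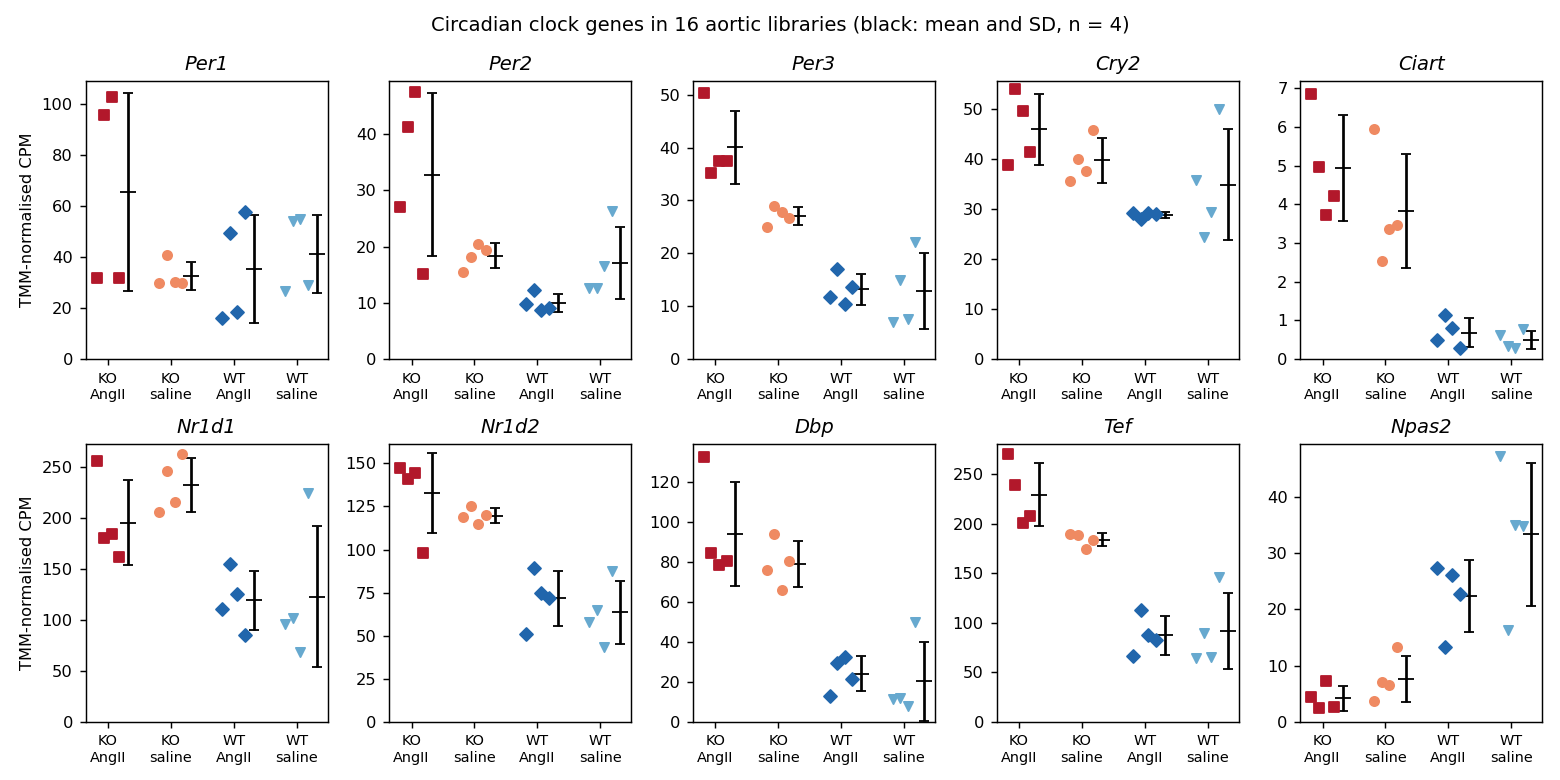
TMM-normalised CPM (y axis, from 0) of the 10 clock genes in the 4 groups (x axis), with 1 point per library and the mean and SD of 4 libraries in black. Per3, Nr1d2, Dbp, Tef and Ciart lie higher in all KO than in all WT libraries, Npas2 lies low in KO, and Per1 overlaps across groups.

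Among the clock's output factors, Dbp (ENSMUSG00000059824), which encodes a PAR bZIP activator of D-box genes, showed a wide gap. It had 132, 84.3, 78.5 and 80.4 CPM in KO AngII and 75.8, 93.9, 65.8 and 80.3 CPM in KO saline. In WT AngII it had 12.8, 29.3, 32.6 and 21.2 CPM, and in WT saline 11.3, 11.7, 7.67 and 49.9 CPM. Every KO library lay above every WT library, and WT saline replicate 4 came nearest to the KO range. The fitted fold of KO over WT was 3.91 under AngII (log2 1.97, SE 0.48) and 3.91 under saline (log2 1.97, SE 0.48). In the GRCm38 annotation 18.01% of the exon bases of Dbp overlap Sphk2 on the opposite strand, and no source used here gives the strand setting of the counting.

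Tef (ENSMUSG00000022389), a second PAR bZIP factor, had 270, 239, 200 and 208 CPM in KO AngII and 190, 188, 174 and 183 CPM in KO saline. It had 66.1, 113, 87.7 and 82.4 CPM in WT AngII and 64.7, 89.6, 65.5 and 146 CPM in WT saline. The 4 KO saline libraries lay close together (183.9 ± 6.93 CPM, SD, n = 4), while the WT saline libraries spread widely (91.4 ± 38.1 CPM). The fold of KO over WT was 2.63 under AngII (log2 1.39, SE 0.23) and 2.01 under saline (log2 1.01, SE 0.23).

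The REV-ERB repressors were also higher in KO. Nr1d1 (ENSMUSG00000020889) had 257, 181, 184 and 162 CPM in KO AngII and 206, 246, 216 and 263 CPM in KO saline, against 111, 155, 125 and 85.5 CPM in WT AngII and 96.2, 102, 68.6 and 225 CPM in WT saline. The AngII groups did not overlap, but WT saline replicate 4 lay inside the KO saline range. The fitted log2 differences were 0.71 (SE 0.30) under AngII and 0.92 (SE 0.30) under saline. Thra, on the opposite strand, overlaps 8.55% of the exon bases of Nr1d1. Its paralogue Nr1d2 (ENSMUSG00000021775) had 147, 141, 144 and 98.1 CPM in KO AngII and 119, 125, 115 and 120 CPM in KO saline, against 50.7, 89.1, 74.8 and 71.7 CPM in WT AngII and 57.7, 65.0, 43.5 and 87.7 CPM in WT saline. The lowest KO library was the one labelled KO AngII replicate 4, and it still lay above the highest WT library. The fold of KO over WT was 1.85 under AngII (log2 0.89, SE 0.21) and 1.89 under saline (log2 0.92, SE 0.21).

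Of the repressors of the main loop, Per3 (ENSMUSG00000028957) followed genotype in every library. It had 50.4, 35.1, 37.4 and 37.4 CPM in KO AngII and 25.0, 29.0, 27.8 and 26.6 CPM in KO saline. The WT levels were 11.7, 17.0, 10.4 and 13.6 CPM under AngII and 6.91, 14.9, 7.55 and 22.1 CPM under saline. Within KO the AngII libraries also lay above all saline libraries. The fold of KO over WT was 3.04 under AngII (log2 1.60, SE 0.30) and 2.10 under saline (log2 1.07, SE 0.30).

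Per2 (ENSMUSG00000055866), a core repressor, was apart by genotype under AngII alone. It had 27.1, 41.3, 47.5 and 15.2 CPM in KO AngII, against 9.82, 12.4, 8.75 and 9.10 CPM in WT AngII. Under saline the groups overlapped, with 15.4, 18.2, 20.5 and 19.4 CPM in KO and 12.7, 12.7, 16.6 and 26.4 CPM in WT. The log2 difference of KO from WT was 1.71 (SE 0.31) under AngII and 0.10 (SE 0.30) under saline.

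Per1 (ENSMUSG00000020893) encodes a repressor whose transcription is also raised acutely by cAMP and glucocorticoid signals, and its levels did not follow the groups. It had 31.9, 95.7, 102 and 31.7 CPM in KO AngII and 29.8, 40.6, 30.1 and 29.8 CPM in KO saline. It had 15.998, 49.3, 18.3 and 57.4 CPM in WT AngII and 26.7, 53.9, 55.0 and 28.9 CPM in WT saline. In KO AngII, WT AngII and WT saline a pair of libraries stood high and a pair low, and KO overlapped WT under both infusions. The log2 difference of KO from WT was 0.89 (SE 0.46) under AngII and -0.34 (SE 0.46) under saline.

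Cry2 (ENSMUSG00000068742), which encodes a cryptochrome partner of the Period proteins, differed less. It had 38.9, 54.1, 49.6 and 41.4 CPM in KO AngII, against 29.2, 28.0, 29.2 and 29.0 CPM in WT AngII, without overlap. Under saline it had 35.6, 40.1, 37.6 and 45.9 CPM in KO, against 35.8, 24.4, 29.5 and 50.03 CPM in WT, with overlap. The log2 difference was 0.67 (SE 0.18) under AngII and 0.19 (SE 0.18) under saline.

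Ciart (ENSMUSG00000038550), which encodes a repressor of CLOCK and BMAL1 also called Chrono, was the least abundant of the genes that stood higher in KO and had the largest fold change. It had 6.86, 4.97, 3.72 and 4.22 CPM in KO AngII and 5.94, 2.54, 3.37 and 3.46 CPM in KO saline. Its WT levels were 0.481, 1.14, 0.802 and 0.297 CPM under AngII and 0.610, 0.326, 0.295 and 0.768 CPM under saline. These rest on 33 to 101 reads per KO library and 5 to 17 reads per WT library, so single WT levels are imprecise, yet no library crossed the gap. The fold of KO over WT was 7.22 under AngII (log2 2.85, SE 0.44) and 7.52 under saline (log2 2.91, SE 0.44).

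Npas2 (ENSMUSG00000026077), the CLOCK paralogue on the activating side of the loop, went the other way. It had 4.34, 2.41, 7.33 and 2.68 CPM in KO AngII, against 27.3, 13.2, 26.1 and 22.7 CPM in WT AngII. It had 3.68, 6.99, 6.54 and 13.4 CPM in KO saline, against 47.2, 16.3, 35.0 and 34.9 CPM in WT saline. Within each infusion no KO library reached the lowest WT library. Npas2 was 5.33-fold lower in KO under AngII (log2 -2.41, SE 0.44) and 4.36-fold lower under saline (log2 -2.12, SE 0.43).

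Clock genes outside the 10 were read from a list of 10 and tested with edgeR's quasi-likelihood test over all 15984 genes, with Benjamini-Hochberg adjustment and a threshold of 0.05. Rorb was too low to test. Under saline 2 of 9 were higher in KO (background 1.23%) and 3 were lower (1.78%), with 3.01% of all genes called in either direction. Under AngII 2 were higher (0.995%) and 2 lower (1.03%), with 2.03% called in either direction. Of the 9, 4 had a positive and 5 a negative difference under each infusion, and their median log2 difference was -0.34 under AngII and -0.58 under saline, against 0.04 and 0.05 over all genes tested. Under saline the groups did not overlap for 3 with KO higher (background 5.17%) and for 5 with KO lower (5.94%). Under AngII they did not overlap for 4 with KO higher (4.54%) and for 3 with KO lower (4.8%). At an unadjusted edgeR p under 0.05 stood 8 of 9 under saline, against 21.8% of all genes. Under AngII 8 of 9 stood there, against 17.9% of all genes. The list holds activators and repressors of the loop and was drawn up with earlier results of these data known.

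Bmal1, listed in the table as Arntl, encodes the obligate partner of CLOCK and NPAS2 and fell in KO under both infusions. It had 3.22, 3.59, 7.27 and 5.65 CPM in KO AngII and 5.75, 5.53, 7.66 and 12.8 CPM in KO saline, against 27.8, 13.6, 18.8 and 23.4 CPM in WT AngII and 30.2, 19.3, 26.1 and 22.8 CPM in WT saline. All 8 KO libraries lay below all 8 WT libraries. Bmal1 was 4.23-fold lower in KO under AngII (log2 -2.08, SE 0.32, adjusted p = 0.00377 by edgeR) and 3.10-fold lower under saline (log2 -1.63, SE 0.32, adjusted p = 0.0169 by edgeR). Its paralogue Bmal2 (Arntl2), at 0.742 to 2.41 CPM in KO and 2.71 to 5.02 CPM in WT, did not overlap either. Bmal2 fell under AngII (log2 -1.48, SE 0.32, adjusted p = 0.0345 by edgeR) and did not pass under saline (log2 -0.96, SE 0.32, adjusted p = 0.111 by edgeR).

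Clock, which encodes the other activating partner, fell by a smaller amount in KO under saline. It had 51.0, 70.1, 67.5 and 64.2 CPM in KO saline, against 103, 94.8, 86.9 and 92.6 CPM in WT saline (log2 -0.58, SE 0.14, adjusted p = 0.0423 by edgeR). Under AngII the ranges of 51.5 to 79.4 CPM in KO and 75.6 to 97.0 CPM in WT overlapped (log2 -0.38, SE 0.14, adjusted p = 0.16 by edgeR). Nfil3, the repressor that competes with DBP and TEF at D-boxes, had 7.17, 5.22, 7.59 and 7.66 CPM in KO saline, against 38.7, 38.1, 55.6 and 14.9 CPM in WT saline. Nfil3 was 5.32-fold lower in KO under saline (log2 -2.41, SE 0.53, adjusted p = 0.0277 by edgeR), and its difference under AngII did not pass (log2 -1.70, SE 0.51, adjusted p = 0.087 by edgeR).

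Of the genes that rose, Hlf encodes the third PAR bZIP factor, beside DBP and TEF. It had 80.7, 54.2, 50.7 and 42.5 CPM in KO AngII, against 17.8, 21.7, 12.4 and 12.2 CPM in WT AngII. Hlf was 3.56-fold higher in KO under AngII (log2 1.83, SE 0.31, adjusted p = 0.00642 by edgeR), and its difference of 1.10 log2 under saline did not pass (SE 0.30, adjusted p = 0.0613 by edgeR). Bhlhe40 and Bhlhe41 encode DEC1 and DEC2, E-box repressors. Bhlhe41 ran from 25.9 to 57.0 CPM over the KO libraries and from 8.55 to 20.8 CPM over the WT libraries. It rose in KO under AngII (log2 1.23, SE 0.28, adjusted p = 0.0393 by edgeR) and under saline (log2 1.68, SE 0.29, adjusted p = 0.0069 by edgeR). Gm43909, on the opposite strand, overlaps 19.0% of the exon bases of Bhlhe41. Bhlhe40 ran from 75.5 to 141 CPM in KO and from 25.0 to 60.4 CPM in WT. It rose under saline (log2 1.42, SE 0.28, adjusted p = 0.0185 by edgeR) and did not pass under AngII (log2 0.92, SE 0.28, adjusted p = 0.087 by edgeR).

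The remaining genes of the list passed in neither comparison. Cry1, the second cryptochrome, ran from 7.76 to 11.2 CPM in KO AngII and from 4.08 to 7.07 CPM in WT AngII, without overlap (log2 0.69). Under saline it ran from 6.39 to 8.40 CPM in KO and from 2.82 to 10.2 CPM in WT. The receptor gene Rora encodes an activator of Bmal1. It ran from 31.1 to 46.9 CPM in KO saline and from 49.3 to 69.2 CPM in WT saline, without overlap (log2 -0.59). Under AngII it ran from 28.3 to 67.8 CPM in KO and from 58.4 to 84.6 CPM in WT. Rorb had 77 reads in the library labelled KO AngII replicate 4, which carries the chromaffin markers, and at most 3 reads in each other library. Without 1 library at a time the number of core clock genes called was lowest under saline, at 1, when WT saline replicate 1 was dropped. It was highest, at 7, when KO AngII replicate 4 was dropped. Under AngII it lay between 2 (without KO AngII replicate 2, KO saline replicate 3 or WT AngII replicate 1, 3 or 4) and 5 (without KO AngII replicate 3 or WT saline replicate 2). Bmal1 and Hlf under AngII and Bhlhe41 under saline were called in all 22 alternatives. Of the other calls under saline, Bmal1 was kept in 20, Bhlhe40 in 18, Nfil3 in 16 and Clock in 8, and of those under AngII, Bmal2 was kept in 13 and Bhlhe41 in 12.

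**Figure D2:**
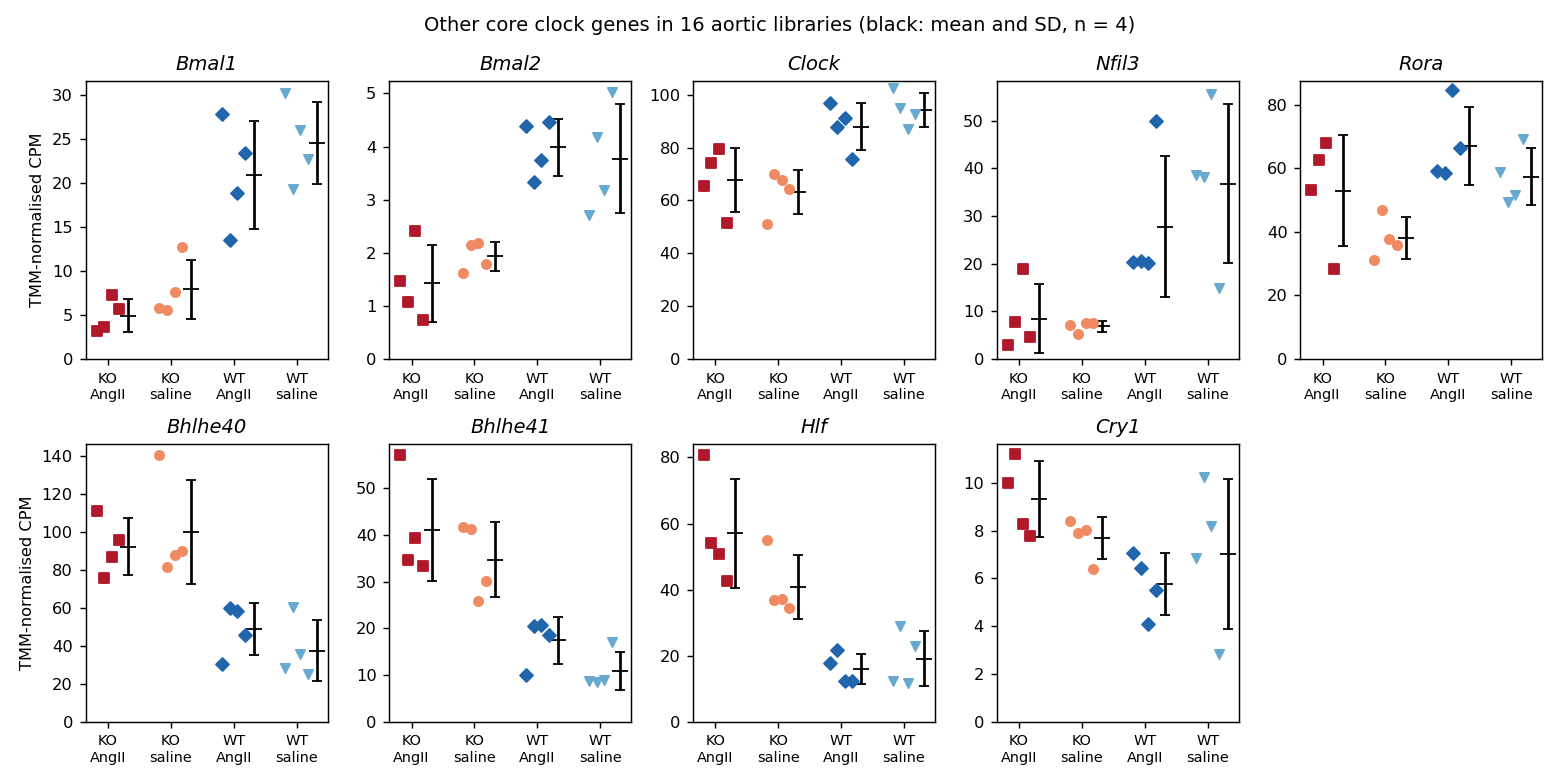
TMM-normalised CPM (y axis, from 0) of 9 further core clock genes in the 4 groups (x axis), with 1 point per library and the mean and SD of 4 libraries in black. Bmal1 and Bmal2 lie lower in all KO than in all WT libraries, and Bhlhe40, Bhlhe41 and Hlf lie higher.

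The opposite directions can be read inside each library as ratios of read counts, which no scaling between libraries can move. Per Bmal1 read there were 10.8 to 41.2 Dbp reads in KO AngII and 6.28 to 17.0 in KO saline, against 0.462 to 2.16 in WT AngII and 0.294 to 2.19 in WT saline. Per Npas2 read there were 27.3 to 99.4 Tef reads in KO AngII and 13.7 to 51.6 in KO saline, against 2.42 to 8.55 in WT AngII and 1.37 to 5.50 in WT saline. Nr1d1 reads per Bmal1 read ran from 25.3 to 79.7 in KO AngII and from 20.6 to 44.5 in KO saline, against 3.65 to 11.45 in WT AngII and 2.63 to 9.86 in WT saline. Each ratio separated all 8 KO from all 8 WT libraries. Dbp and Bmal1 each did so alone and in opposite directions, so their ratio had to do so. Dbp, Tef, Nr1d1 and Npas2 were chosen by these levels, so the ratios are a description and no test. The library labelled KO saline replicate 1, whose Vamp8 level was in the WT range, lay with the other KO libraries in each ratio. It was counted as KO when the genes were chosen, so its place here does not bear on whether its label is right.

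**Figure D3:**
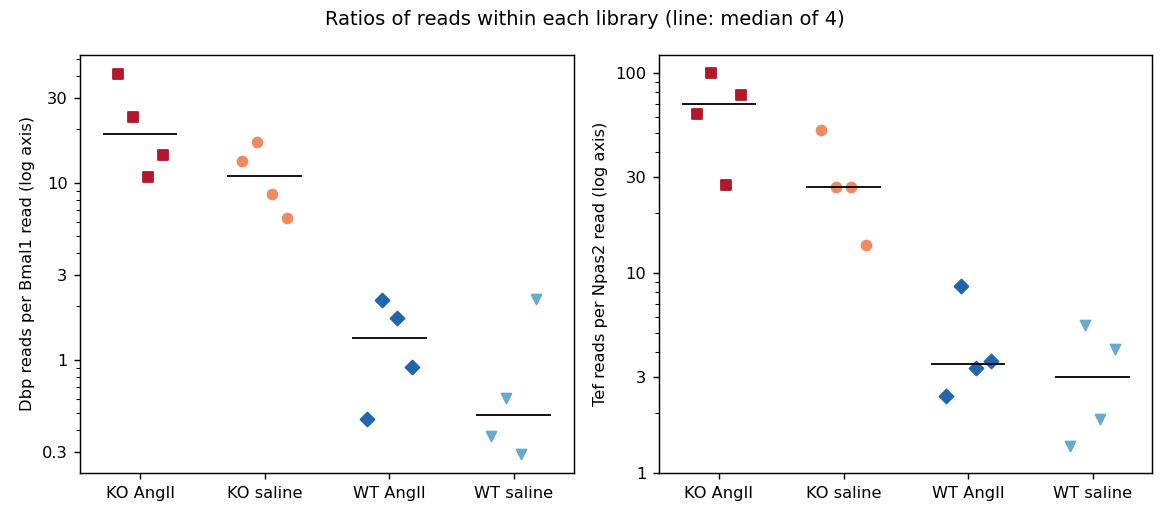
Dbp reads per Bmal1 read (left) and Tef reads per Npas2 read (right), both on log axes, for each library of the 4 groups, with the group median as a line. The lowest KO values, 6.28 and 13.7, lie above the highest WT values, 2.19 and 8.55.

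Between AngII and saline, fewer of the chosen genes were apart than between genotypes. In KO, Per3 and Tef were higher in all AngII than in all saline libraries (background 4.25%, with 3.52% lower), by 0.56 (SE 0.29) and 0.32 (SE 0.23) on the log2 scale. In WT, the groups did not overlap for Per2 alone, with AngII lower (background 2.57%, with 3.67% of genes in the other direction), and its log2 difference from saline was -0.77 (SE 0.31). For Dbp the fitted log2 difference was 0.25 in KO and 0.25 in WT, with SEs of 0.46 and 0.47. For Per2 it was 0.83 (SE 0.30) in KO and -0.77 (SE 0.31) in WT, a difference between genotypes of 1.61 (SE 0.43). For Per1 it was 1.01 (SE 0.46) in KO and -0.22 (SE 0.46) in WT, a difference of 1.23 (SE 0.65), with 2 of the KO AngII libraries high and 2 low.

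None of the 9 tested core clock genes outside the chosen set passed for AngII against saline in either genotype or for the interaction. In KO edgeR called 0.0501% of all genes (0% higher and 0.0501% lower), in WT 0.444% (0.438% higher and 0.00626% lower) and in the interaction 0.0188% (0% higher and 0.0188% lower). By DESeq2 none passed either. At an unadjusted edgeR p under 0.05 stood Bmal1 in KO (log2 -0.68, SE 0.32, adjusted p = 0.256) and Bhlhe41 in WT (log2 0.68, SE 0.28, adjusted p = 0.468), and no gene in the interaction. That is 1 of 9 genes in each genotype, where 19.2% of all genes in KO and 8.8% in WT stood at that level, and 0 of 9 in the interaction, where 11.2% did. Within KO the mitochondrial share also differed between the infusions without overlap, as given above, and its part in these values was not tested.

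**Figure D4:**
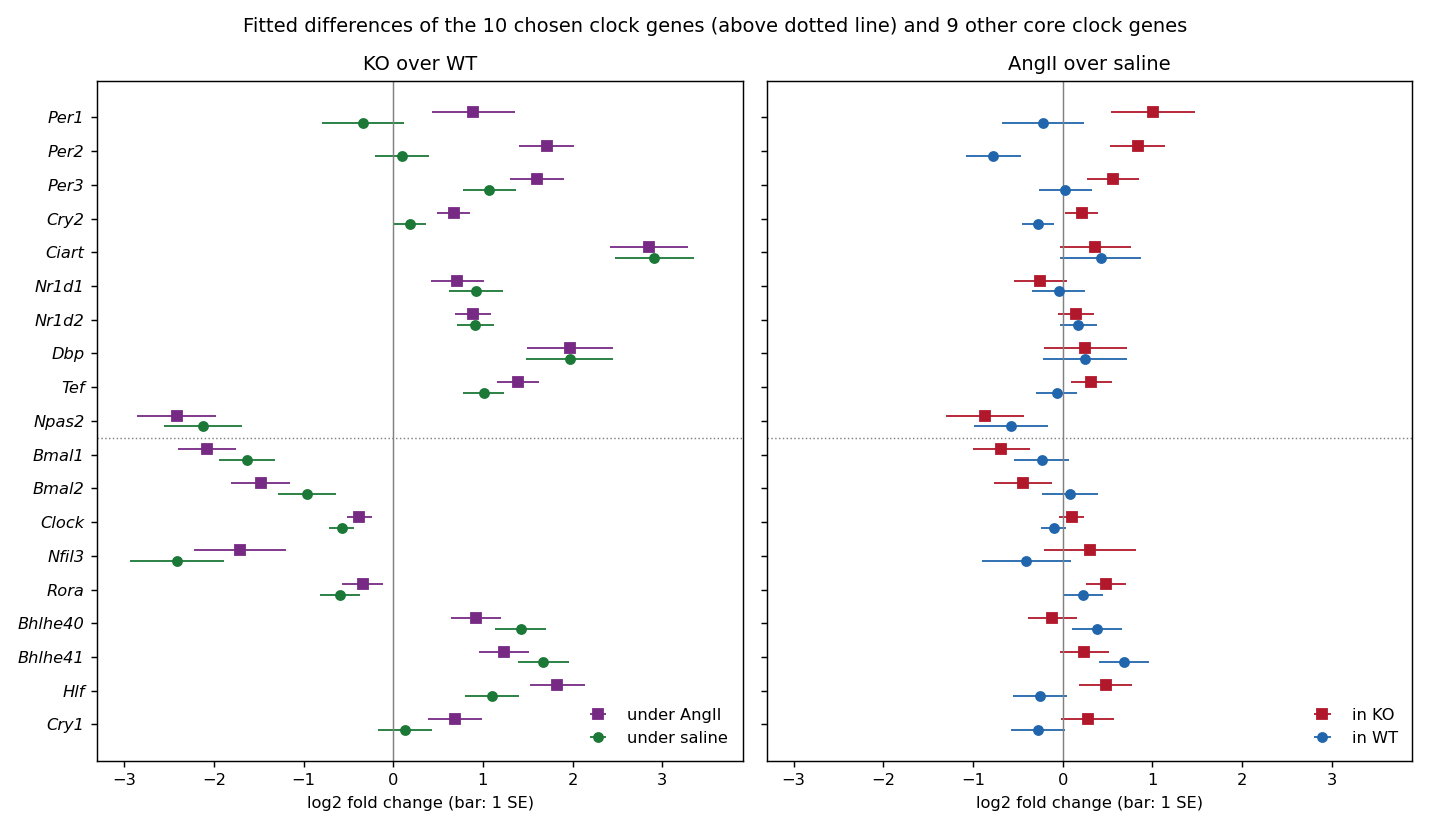
Fitted log2 fold changes with 1 SE of the 10 chosen clock genes (above the dotted line) and of 9 other core clock genes, for KO over WT (left) and AngII over saline (right). Ciart, at 2.85 under AngII and 2.91 under saline, lies farthest to the right, and Npas2, Bmal1 and Nfil3 lie left of 0 under both infusions.

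Within groups, the genes did not all vary together. After each group's mean was subtracted, Nr1d1, Nr1d2, Dbp, Tef and Per3 correlated with each other over the 16 libraries, with Pearson r between 0.69 and 0.91 and Spearman rho between 0.51 and 0.80 in their 10 pairs. These 5 were picked after their values were seen, and over all 45 pairs of the 10 genes r ran from -0.38 to 0.91 with a median of 0.41. The highest was that of Dbp with Tef (r = 0.91, rho = 0.78). These libraries share their scaling, and the values are a description. Per1 correlated with the other 9 members between -0.38 and 0.45 (median -0.02), and Npas2 between -0.30 and 0.44. WT saline replicate 4 carries part of the pattern, as it was the highest of its group for Per2, Per3, Nr1d1, Nr1d2, Dbp, Tef, Ciart and Cry2. Its Bmal1 level of 22.8 CPM and Npas2 level of 34.9 CPM lay within its group's range. Among the other core clock genes it was lowest of its group for Nfil3, Cry1 and Bhlhe40 (14.9, 2.82 and 25.0 CPM). For Bhlhe41, Bmal2 and Rora it was highest (17.0, 5.02 and 69.2 CPM). Its smooth muscle markers summed to 18690 CPM and its brown fat markers to 462 CPM.

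**Figure D5:**
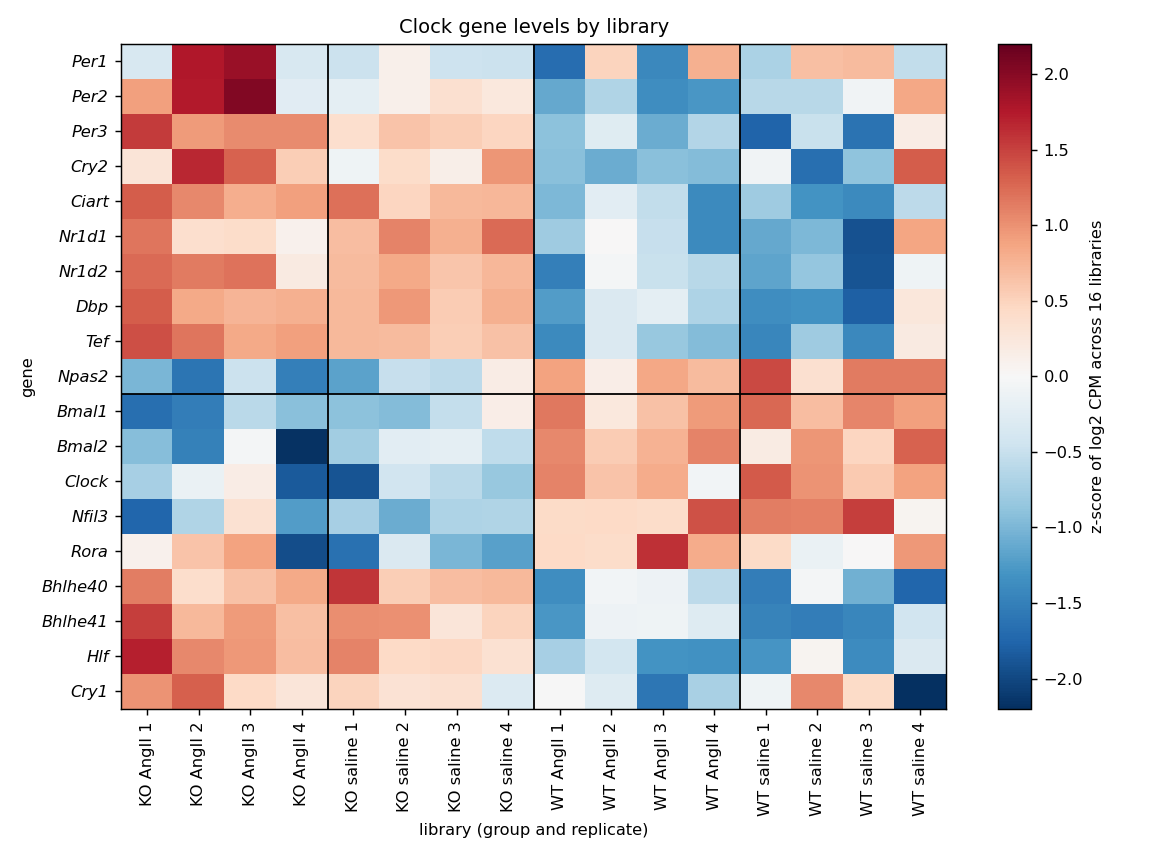
Levels of the 10 chosen clock genes (above the line) and 9 other core clock genes in each of the 16 libraries, as z-scores of log2 CPM across libraries, from low (blue) to high (red). The KO libraries are red for Dbp, Tef, Ciart and Per3 and blue for Npas2 and Bmal1, and WT saline replicate 4 is redder than the other WT saline libraries for Dbp, Tef and Nr1d1.

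The genes most like the common course of Per1, Per2, Per3, Nr1d1, Nr1d2, Dbp, Tef and Ciart within groups, over 16 libraries, were Mid1-ps1 (r = 0.83), Mtcp1 (r = 0.80), Zfp960 (r = 0.78), Mrgprg (r = 0.78), Kmo (r = 0.76) and Bhlhe41 (r = 0.74). Those most opposite were Gm8990 (r = -0.79), Rabl2 (r = -0.76), Lins1 (r = -0.76), Aplnr (r = -0.75), 6720489N17Rik (r = -0.74) and ENSMUSG00000119977 (r = -0.74). Most of them were low, with a mean of 0.407 CPM for Mid1-ps1, where counting error is large. Bhlhe41 is the single clock gene among the 12. Per1, looked at alone after its values were seen, was most like Rbm15 (r = 0.90), Sgk1 (r = 0.89), Peli1 (r = 0.86), Nr4a3 (r = 0.86), Klf4 (r = 0.85) and Tsc22d3 (r = 0.84). Sgk1, which encodes a kinase, and Tsc22d3, which encodes GILZ, are textbook targets of the glucocorticoid receptor and stand in the glucocorticoid list. That list holds 10 genes, and no other gene of it is among those named here for Per1. A part of glucocorticoids in the Per1 levels was not tested. Nr4a3 and Klf4 encode transcription factors that are quickly induced by stimuli.

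Genes downstream of and around the clock were also read. Of 12 clock output genes, 1 was called higher and 1 lower under saline (background 1.23% and 1.78%) and 1 lower under AngII (1.03%). Tspan4 rose in KO under saline, with 58.0 to 79.9 CPM in KO and 33.4 to 43.7 CPM in WT (log2 0.85, SE 0.15, adjusted p = 0.00795 by edgeR). Cdkn1a, which encodes the cell cycle inhibitor p21, fell in KO under AngII (log2 -1.44, adjusted p = 0.025 by edgeR) and under saline (log2 -1.20, SE 0.30, adjusted p = 0.0432 by edgeR). It is also in the list of glucocorticoid-induced genes, where it was the only call among 10. The other output genes, among them Wee1, Usp2, Nampt and Klf9, did not pass. None of 13 genes for kinases, ubiquitin ligases and cofactors that act on clock proteins was called between genotypes, and Huwe1 came nearest under saline (log2 -0.46, SE 0.15, adjusted p = 0.108 by edgeR). None of 12 immediate early genes and neither of the cold-inducible RNA-binding protein genes was called, with Rbm3 at a log2 difference of 0.56 under saline (SE 0.18, adjusted p = 0.0938 by edgeR). The median log2 difference of KO from WT was 0.28 under AngII and 0.20 under saline for the output genes, 0.13 and -0.13 for the kinases, ligases and cofactors, -0.22 and -0.02 for the glucocorticoid-induced genes, and -0.42 and -0.07 for the immediate early genes. For the cold-inducible genes Rbm3 and Cirbp it was 0.41 under AngII and 0.57 under saline. Cirbp ran from 38.9 to 63.2 CPM in KO AngII and from 21.3 to 36.3 CPM in WT AngII, without overlap (background 4.54%). Under saline its groups overlapped.

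Per kilobase of exon, Nr1d1 was the most abundant of the 10 in each group, at 63.6 ± 13.6 CPM per kb in KO AngII, 75.6 ± 8.56 in KO saline, 38.8 ± 9.47 in WT AngII and 39.9 ± 22.6 in WT saline (SD, n = 4). In both KO groups Dbp, Tef and Nr1d2 followed, at 31.4 ± 8.63, 29.1 ± 4.05 and 24.5 ± 4.28 CPM per kb under AngII, and these 3 did not differ beyond their spread. Npas2 was lowest in both KO groups and Ciart lowest in both WT groups. Several neighbours in this order lay within their spread. In KO saline, Npas2 at 1.60 ± 0.85 and Ciart at 1.69 ± 0.65 CPM per kb did not differ beyond it, nor did Npas2 at 4.66 ± 1.33 and Cry2 at 4.56 ± 0.09 CPM per kb in WT AngII. In WT saline the same held for Per1 at 7.30 ± 2.73, Npas2 at 6.97 ± 2.66 and Dbp at 6.73 ± 6.66 CPM per kb.

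Cell type markers moved with some groups, and their part in the clock gene values was not tested. The summed level of the fibroblast markers (Pdgfra, Dcn, Lum, Col1a1 and Pi16) was apart between genotypes under both infusions. The sums were 2393 to 4048 CPM in KO AngII, 2359 to 3523 CPM in KO saline, 5158 to 14877 CPM in WT AngII and 3612 to 6753 CPM in WT saline. Gene by gene, under saline 2 had a positive and 3 a negative log2 difference of KO from WT (median -0.08). Under AngII all 5 were negative (median -0.74). Under saline all 5 adipocyte markers (Adipoq, Plin1, Cidec, Fabp4 and Lep) had a positive difference (median 0.95). All 5 smooth muscle markers had a negative difference under saline (median -0.87). Under AngII the adipocyte median was 0.51, with all 5 positive, and the smooth muscle median -0.13, with 4 negative. All 5 endothelial markers were positive under both infusions, with medians of 0.45 under AngII and 0.42 under saline. The sums of these lists overlapped between genotypes. Macrophage markers summed to 103 to 142 CPM in KO AngII and 134 to 375 CPM in WT AngII. Brown adipocyte markers overlapped between genotypes, at 592 to 3438 CPM in KO AngII, 1798 to 8240 CPM in KO saline, 990 to 3170 CPM in WT AngII and 462 to 5106 CPM in WT saline. Of the 38 marker genes tested, none was called between genotypes under saline (background 3.01%), while under AngII 2 were higher (0.995%) and 1 lower (1.03%). The collagen gene Col1a1 fell (log2 -1.65, adjusted p = 0.0499 by edgeR), the leptin gene Lep rose (log2 3.41, adjusted p = 0.000648 by edgeR) and the granin gene Chgb rose (log2 8.54, adjusted p = 0.0495 by edgeR). Chgb had 0.350, 26.5, 0.273 and 156 CPM in KO AngII, so its rise lies in 2 libraries. None of the 38 marker genes tested separated all 8 KO from all 8 WT libraries. Of all genes tested, 0.651% did so with KO higher and 0.626% with KO lower. In whole vessel RNA, fewer cells of a type and less RNA per cell cannot be told apart.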

How the data were processed

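Poly-A RNA of 16 aortae was sequenced in paired ends, with groups and replicate numbers taken from the labels. The deposited table held whole-number counts of reads, not normalised. The submitters' processing notes name GRCm39 (mm39), HISAT2 2.0.5, DESeq2 1.20.0 and featureCounts 1.5.0-p3. The strand setting, annotation release and handling of multiply matching reads were not given in the sources used here. Exon overlaps, gene lengths and promoters came from GRCm38 annotations, so gene coordinates on the build of the counts are not printed.

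From the counts, edgeR 4.0.16 (R 4.3.3) kept 15984 genes by its default filter and removed 13711, scaled by TMM, and fitted a mean per group to all 16 libraries (12 residual degrees of freedom, biological coefficient of variation 35.3%). Calls had an adjusted p (Benjamini-Hochberg) below 0.05 in the two-sided quasi-likelihood F test. CPM are TMM-scaled. The script was checked on simulated counts. The members and lists were chosen with earlier results of these data known. All members and core clock genes are named, with the genes of smallest p from other lists and the 6 genes most and least like the common pattern. Settings compared were RLE scaling, no filter, DESeq2 1.42.0, a filter of at least 1 CPM in 4 or more libraries, the replicate number as a block, each library left out in turn, and 2 doubtful libraries left out together. A clock gene and a marker gene planned for the lists are not reported here and were left out of every count. The labels call the libraries biological replicates.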

Additional observations from a re-analysis of the deposited data

Results flagged for a closer look

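Of 76 sets of 4 libraries examined for the 19 clock genes, 9 held a library far from the other 3. The cut-off flags about 1 in 20 sets of independent, normally distributed values. The sets share libraries and their genes vary together, so the count cannot be read against that rate. In KO AngII replicate 1, Dbp was at 132 CPM (78.5 to 84.3 in the others) and Per3 at 50.4 CPM (35.1 to 37.4 in the others). In the library labelled KO AngII replicate 4, which carries chromaffin markers, Nr1d2 was at 98.1 CPM (141 to 147 in the others). In the library labelled KO saline replicate 1, whose Vamp8 level was that of WT, Bhlhe40 was at 141 CPM (81.7 to 89.9 in the others) and Hlf at 55.2 CPM (34.4 to 37.2 in the others). Per1 was at 40.6 CPM in KO saline replicate 2 (29.8 to 30.1 in the others). Nfil3 was at 50.02 CPM in WT AngII replicate 4 (20.05 to 20.7 in the others). In WT saline replicate 4, Dbp was at 49.9 CPM (7.67 to 11.7 in the others) and Bhlhe41 at 17.0 CPM (8.55 to 9.02 in the others).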

How the results depend on the processing

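Over 22 alternatives, no called difference of the clock genes changed sign. DESeq2 called more genes: 280 for AngII in WT, 734 for AngII in KO, 1362 and 1230 for KO against WT under saline and AngII, and 97 for the interaction, against 71, 8, 481, 324 and 3 with edgeR. Of DESeq2's calls 79.3% were higher for AngII in WT, 65.8% for AngII in KO and 62.9% for the interaction, against 98.6%, 0% and 0% with edgeR. Without both doubtful libraries, 128 genes were called for AngII in WT. Leaving out single libraries gave 3 to 115 genes for AngII in WT, 6 to 32 for AngII in KO, 105 to 1744 and 100 to 845 for KO against WT under saline and AngII, and 2 to 12 for the interaction. For the other core clock genes it gave 1 to 7 under saline and 2 to 5 under AngII. Under saline 5 such genes were called with all libraries, 1 without WT saline replicate 1, 2 without WT saline replicate 3, KO saline replicate 1 or KO saline replicate 2, and 3 without WT saline replicate 4, KO saline replicate 3 or KO saline replicate 4. Under AngII 4 were called with all libraries and 2 without KO AngII replicate 2, KO saline replicate 3 or WT AngII replicates 1, 3 or 4. The cause was not tested. Over the 22 alternatives the adjusted p of Bmal1 ran from 4.31e-05 to 0.06 under saline and from 4.07e-08 to 0.0185 under AngII, that of Bhlhe41 from 6.11e-06 to 0.0338 under saline, and that of Hlf from 1.9e-06 to 0.0362 under AngII.

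The replicate numbers did not pair the libraries: 8 of 24 same-number pairs had a correlation over 0.1 (range -0.42 to 0.44), and 13 of 48 comparisons were best with the library's own number. With the replicate number as a block, 42 genes were called for AngII in WT, 14 for AngII in KO and 166 for KO against WT under AngII, and 2 of the other core clock genes under AngII. Low counts limit Ciart, at 5 to 17 reads in each WT library.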
